A study of Homo sapiens with 9 samples.

Results

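MET and CD274 were followed in BT-549 cells after transfection of small RNA. MET encodes the cell-surface receptor for hepatocyte growth factor, and CD274 encodes PD-L1, a membrane protein that holds back T cells. The features whose platform symbol is MET or CD274 were taken, keeping the brightest feature of a gene over all 9 arrays. Each of the 2 genes had 1 feature, so nothing had to be chosen between features, and they are 2 of the 14884 genes with a symbol. The pair was chosen by its signals on these same arrays, including the differences between groups. Its levels and differences are therefore descriptions with no p-value.

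BT-549 is an established human line of triple-negative breast cancer with a mesenchymal appearance. One group received a synthetic miR-150-5p mimic, one received an unspecific negative control RNA, and the mock group received Lipofectamine RNAiMAX alone, with 3 arrays in each. Both RNAs were given at 50 nM, the lipid reached all 3 groups, the medium was changed at 24 h and RNA was taken at 72 h. Total RNA was read on a whole-transcript array, and every value below is a log2 signal or a difference between log2 signals. On RNA from a whole culture, fewer cells with a transcript and less transcript in each cell cannot be told apart. The labels do not say that the arrays of a group came from separate cultures. The p-values therefore weigh group differences against the scatter of these samples, and that scatter may be technical.

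Hepatocyte growth factor is secreted as an inactive precursor that serine proteases cleave. The active factor pairs MET receptors, which phosphorylate each other and recruit adaptors such as GAB1, GRB2 and SHC1, while the ubiquitin ligase CBL sends the receptor for degradation. In breast cancer MET is known for driving motility and growth. PD-L1 binds PD-1 on T cells. Its gene is induced by interferon-gamma through JAK kinases and IRF1, and CMTM6 keeps the protein at the cell surface. These arrays read RNA, and neither protein was measured.

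Median signals of the arrays ran from 2.43 to 2.48. Taken over features, which do not count as replicates, pairs of arrays had Pearson's r of 0.981 to 0.989 in a group and 0.977 to 0.986 between groups. The 8 measured of 14 mesenchymal markers averaged 7.11 to 7.17 on mimic, 7.34 to 7.59 on negative control and 7.68 to 7.74 on mock arrays. The 13 measured of 15 luminal markers averaged 2.97 to 3.09 on mimic, 3.12 to 3.22 on negative control and 3.08 to 3.28 on mock arrays. The 8 measured of 18 blood markers averaged 3.02 to 3.13, 3.17 to 3.26 and 3.17 to 3.23 in the same order of groups, and the 6 of 8 endothelial markers 2.46 to 2.57, 2.53 to 2.73 and 2.52 to 2.61. At or above the median of all genes were 4 of the 13 luminal, 1 of the 8 blood and 1 of the 6 endothelial markers, against all 8 mesenchymal ones. Single markers read far above their list's average: KRT18 (group means 7.42 to 7.73) and GATA3 (5.43 to 5.84) among luminal, and CD68 (6.49 to 6.72) among blood markers. A log2 signal has no zero, so no marker can be called absent. The mesenchymal mean was highest on mock arrays, as were both genes, and its part in their differences was not tested. As a group, 23 RNAs of the nucleolus and Cajal bodies (snoRNAs and scaRNAs) averaged 6.83 on negative control 2 and 6.78 on mock 2, against 5.62 to 5.91 on the other arrays of these groups and 5.95 to 6.75 on mimic arrays. Without these 2 arrays, an alternative chosen after seeing the data, each difference of MET and CD274 moved by less than the SD between replicates.

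MET read highest on mock arrays, lowest on negative control arrays and between them on mimic arrays. Its signal was 7.56, 7.62 and 7.59 on mimic arrays, against 6.47, 6.21 and 6.43 on negative control arrays and 8.02, 7.81 and 7.98 on mock arrays. The 3 groups did not overlap at any array, and the mimic arrays lay within 0.06 of each other. MET averaged 7.59 ± 0.031 in the mimic, 6.37 ± 0.14 in the negative control and 7.94 ± 0.11 in the mock group (SD, n = 3 each).

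The negative control RNA thus stood lower than mock by 1.57 on the log2 scale for MET (SE 0.094), 2.96-fold lower. This was the 3rd lowest difference among the 14884 genes of that comparison. The mimic stood above the negative control by 1.22 ± 0.094 (SE), 2.33-fold, and 8th from the top of its comparison. Against mock the mimic was at -0.35 ± 0.094 (SE), 1.27-fold lower. The negative control arrays enter both of the larger differences, so a low signal on these 3 arrays lowers one and raises the other.

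CD274 was also highest on mock arrays, but its mimic arrays stayed near the negative control. Its signal was 4.69, 4.27 and 4.69 on mimic arrays, against 4.25, 4.35 and 4.09 on negative control arrays and 5.68, 5.60 and 5.98 on mock arrays. Every array with small RNA lay below every mock array, whereas mimic 2 lay below negative control 2, so the mimic and negative control groups overlapped. CD274 averaged 4.55 ± 0.24 in the mimic, 4.23 ± 0.13 in the negative control and 5.75 ± 0.20 in the mock group (SD, n = 3 each). 

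For CD274 the negative control stood at -1.52 ± 0.14 (SE) against mock, 2.88-fold lower and the 4th lowest difference of all genes, directly after that of MET. The mimic was at -1.21 ± 0.14 (SE) against mock, 2.31-fold lower and 29th from the bottom. Between mimic and negative control the difference was 0.32 ± 0.14 (SE), 1.25-fold. In order of level, the arrays of mimic and negative control overlapped for CD274, while no groups next to each other overlapped for MET. Whether the mimic differed more from the negative control for MET (1.22) than for CD274 (0.32) was not tested, because both genes were chosen on these values.

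**Figure D1:**
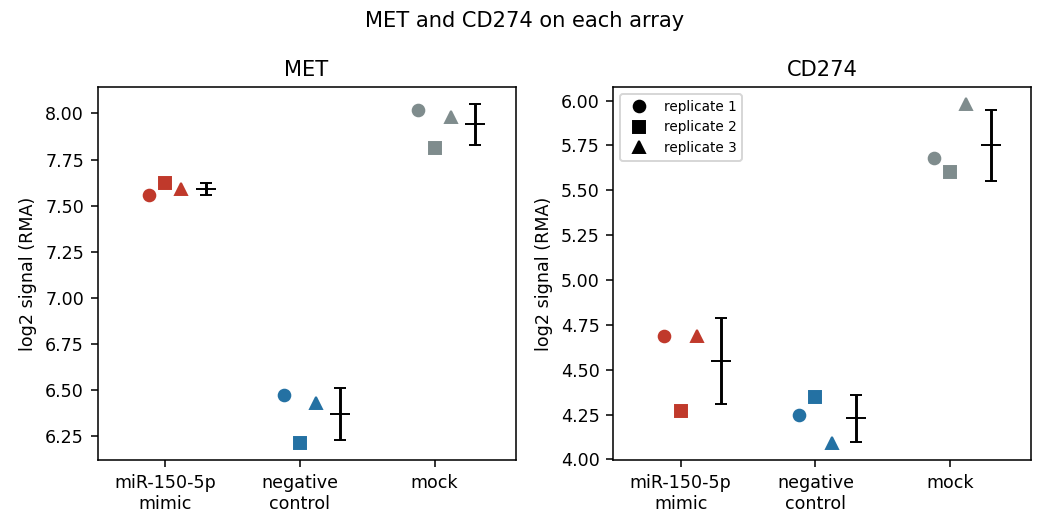
Log2 signal of MET (left) and CD274 (right) on each of the 9 arrays, with group means and SD (n = 3) as black bars beside the points and a marker shape for each replicate number. MET mimic arrays sit at 7.56 to 7.62, between negative control (6.21 to 6.47) and mock (7.81 to 8.02), whereas CD274 mimic arrays at 4.27 to 4.69 overlap the negative control (4.09 to 4.35).

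Pearson's r between MET and CD274 over the 9 arrays was 0.773, a description of 3 groups that share the mock and negative control arrays. Of the deviations from group means, r between the genes was -0.13. Within groups, then, an array with a high MET signal had no consistently high CD274 signal.

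Both genes read lower on negative control than on mock arrays. The factors known to act on them differ in part, with ZEB1, JUN and FOS among those listed here for both. The 250 bases before the annotated start of each gene are therefore shown. They are from RefSeq, build GRCh38.p14, plus strand, printed 5′ to 3′. Capitals mark matches to the GC box of the SP1 family (GGGCGG), the core of interferon-regulatory factor sites (GAAANNGAA) and the STAT site (TTCNNNGAA), searched on both strands. MET lies at chr7:116672196-116798377 and CD274 at chr9:5450542-5470554.
MET, chr7:116671946-116672195: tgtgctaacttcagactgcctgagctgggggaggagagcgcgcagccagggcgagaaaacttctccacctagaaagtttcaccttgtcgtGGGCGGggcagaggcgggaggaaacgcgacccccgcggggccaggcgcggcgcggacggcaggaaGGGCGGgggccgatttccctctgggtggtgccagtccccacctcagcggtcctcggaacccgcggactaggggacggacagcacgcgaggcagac
CD274, chr9:5450292-5450541: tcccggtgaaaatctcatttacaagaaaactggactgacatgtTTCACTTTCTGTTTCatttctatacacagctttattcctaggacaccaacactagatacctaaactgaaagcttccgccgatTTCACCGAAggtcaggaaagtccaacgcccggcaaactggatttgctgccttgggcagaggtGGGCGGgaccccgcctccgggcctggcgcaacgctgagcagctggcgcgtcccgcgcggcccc

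The MET window had 2 GC boxes, starting 160 and 95 bases before the gene start, and no match to the other motifs searched. The CD274 window had 1 GC box, 63 bases before the start. It also held 2 overlapping matches to the interferon-regulatory core on the minus strand, from 207 to 193 bases before the start, and 1 STAT match, whose pattern fits on both strands and which begins 125 bases before it. Of 35116 windows of the same length, 42.6% held a GC box, 6.88% the interferon-regulatory core and 6.57% the STAT site. The AP-1 site (TGANTCA, in 6.57% of windows), the TATA box (TATAAA, 10.7%) and the E-box (CACGTG, 6.34%) matched neither window. The G and C content was 68.4% for MET and 54.8% for CD274, against a median of 58% over all windows. A match is a string of letters and no binding was measured.

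The genes most alike to each member were taken as the 6 highest Pearson r over the 9 arrays, among 902 protein-coding genes with a mean signal at or above the median of all genes and a range of at least 1. They were picked for their likeness, so their differences are descriptions too. For MET they were NPTX1 (r = 0.987), a neuronal pentraxin, CLDN1 (0.971), a claudin of tight junctions, RTN4 (0.960), a membrane protein of the endoplasmic reticulum, GARS1 (0.940), glycyl-tRNA synthetase, BOD1 (0.914), of chromosome alignment, and LEAP2 (0.909), a secreted peptide. NPTX1 read 4.71, 4.71 and 4.80 on mimic, 4.01, 3.90 and 4.20 on negative control and 4.98, 4.97 and 5.02 on mock arrays, so its groups, too, did not overlap. CLDN1 was 2.15-fold above the negative control in the mimic and 2.77-fold below mock in the negative control. GARS1 read 7.73 to 8.01 on mimic arrays, within the mock range of 7.62 to 8.11, and 6.71 to 6.97 on negative control arrays.

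For CD274 the most alike genes were RND3 (r = 0.981), PDCD1LG2 (0.967), TAGLN (0.951), an actin-binding protein of smooth muscle, CCN2 (0.947), a matricellular protein, MMP1 (0.938), a collagenase, and NPR3 (0.925), the clearance receptor of natriuretic peptides. RND3 read 7.02, 6.76 and 6.85 on mimic, 6.47, 6.56 and 6.61 on negative control and 7.66, 7.65 and 7.85 on mock arrays. TAGLN was at -1.10 in the mimic and -1.30 in the negative control against mock, and CCN2 at -0.92 in the negative control. MMP1 differed from CD274 in that the mimic lay below the negative control (-0.22), and against mock the mimic was at -1.85 and the negative control at -1.63. No gene stood on both lists of 6.

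**Figure D2:**
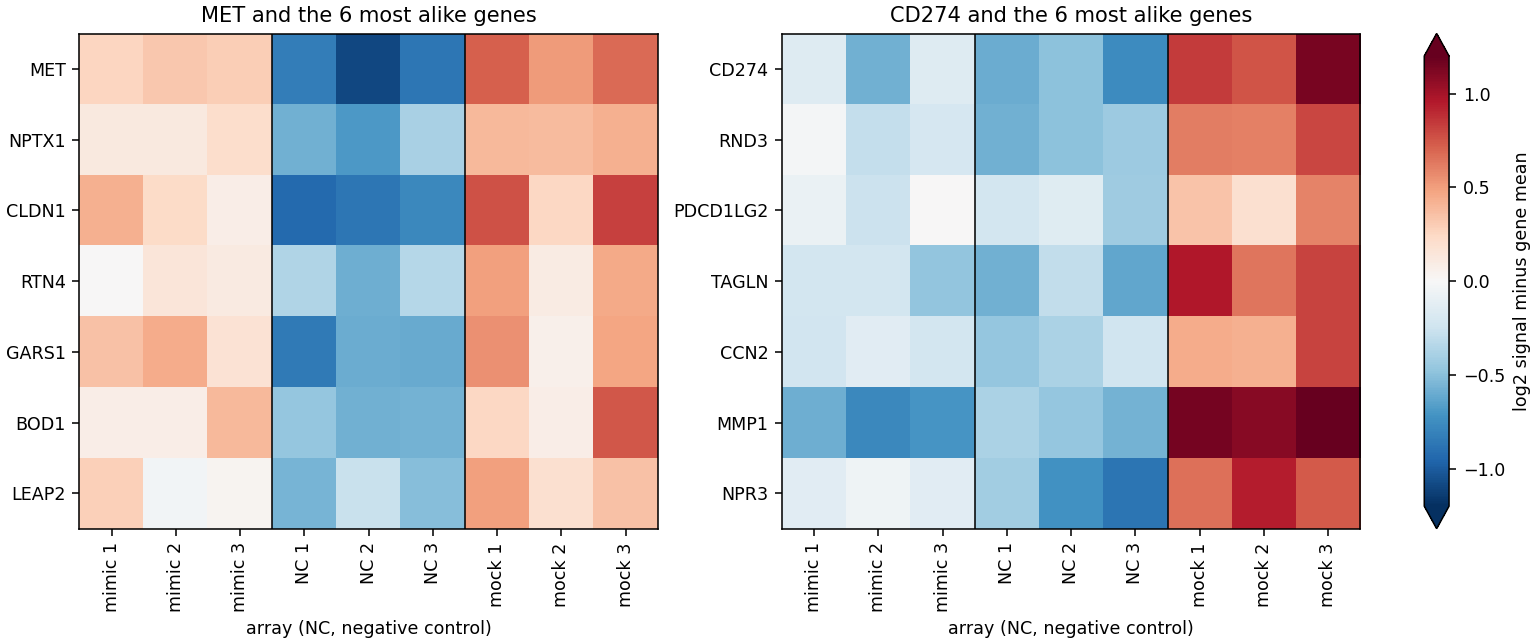
Log2 signal minus the mean of the gene over 9 arrays, as colour, for MET (left) and CD274 (right) with the 6 genes most alike to each in rows and the arrays in columns. The MET genes are lowest on the 3 negative control arrays. The CD274 genes are lower on all 6 arrays that received a small RNA than on any mock array.

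PDCD1LG2 encodes PD-L2, the other ligand of PD-1, and is the next protein-coding gene after CD274 on chromosome 9, its start lying 60 kb downstream. It read 4.89, 4.71 and 4.98 on mimic, 4.75, 4.83 and 4.54 on negative control and 5.31, 5.16 and 5.57 on mock arrays. All arrays with small RNA lay below all mock arrays, as for CD274. PDCD1LG2 differed by -0.64 ± 0.13 (SE) between negative control and mock (limma adjusted p = 0.064) and by -0.49 ± 0.13 between mimic and mock (limma adjusted p = 0.066), and so passed in neither. Both passed when genes under the median signal were dropped (limma adjusted p = 0.036 and 0.041), with array weights (0.048 and 0.045) and after quantile normalization once more (0.046 and 0.036). Neither passed under the other settings. With 1 array left out, limma adjusted p ran from 0.053 to 0.19 and from 0.062 to 0.19. Between mimic and negative control PDCD1LG2 was at 0.15 ± 0.13 (limma adjusted p = 0.63).

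The arrays of a group ranked alike for both PD-1 ligands: mock 3 was highest and mock 2 lowest, negative control 2 highest and 3 lowest, and mimic 2 lowest. The deviations from group means had r = 0.93 between CD274 and PDCD1LG2 over the 9 arrays, 10th among 7441 genes with a signal at or above the median, and this r uses no difference between groups. With JAK2 it was 0.27 and with RIC1 -0.28. Whether probes of the 2 related genes bind each other's transcript was not tested.

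The genes around CD274 did not all share its pattern. JAK2, the kinase downstream of cytokine receptors, starts at -466 kb from the start of CD274. It read 6.03, 5.99 and 6.05 on mimic, 5.75, 5.90 and 5.69 on negative control and 6.29, 6.21 and 6.16 on mock arrays, with no overlap between any pair of groups. It differed by -0.44 ± 0.082 between negative control and mock (limma adjusted p = 0.054), which passed with array weights (0.030) and with the mean of a gene's features (0.049). RIC1, of a complex that activates the trafficking GTPase RAB6, starts 179 kb downstream. It read 7.76, 7.77 and 7.68 on mimic, 6.99, 6.58 and 6.88 on negative control and 7.58, 7.29 and 7.38 on mock arrays.

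RIC1 rose by 0.92 ± 0.12 in the mimic against the negative control (limma adjusted p = 0.0040, highest 0.022 with any 1 array left out). It differed by -0.60 ± 0.12 between negative control and mock (limma adjusted p = 0.064, and 0.039 when genes under the median signal were dropped). The latter difference of RIC1 passed under no other setting (limma adjusted p = 0.071 to 0.23 with 1 array left out). Its order of groups, mimic, mock and negative control, was not that of CD274, and its deviations within groups had r = 0.91 with those of MET, 130th of 7441 genes. In their groups, RIC1 and MET both read lowest on negative control 2 (6.58 and 6.21) and on mock 2 (7.29 and 7.81). These are the 2 arrays set apart above by their snoRNA and scaRNA signals, and their part in this r was not tested. Of 19 measured neighbours of CD274, RIC1 alone passed in the mimic against the negative control, and 0 passed in either comparison with mock by limma (5 in the mimic and 6 in the negative control at an unadjusted p under 0.05). For these 19 the arrays of the mimic and negative control did not overlap in 5, those of the mimic and mock in 7, and those of the negative control and mock in 5. Over all genes that share was 18.6% for mimic and negative control, 20.2% for mimic and mock and 12% for negative control and mock. The shares of all genes that passed were 3.18%, 3.9% and 0.645% in the same order.

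**Figure D3:**
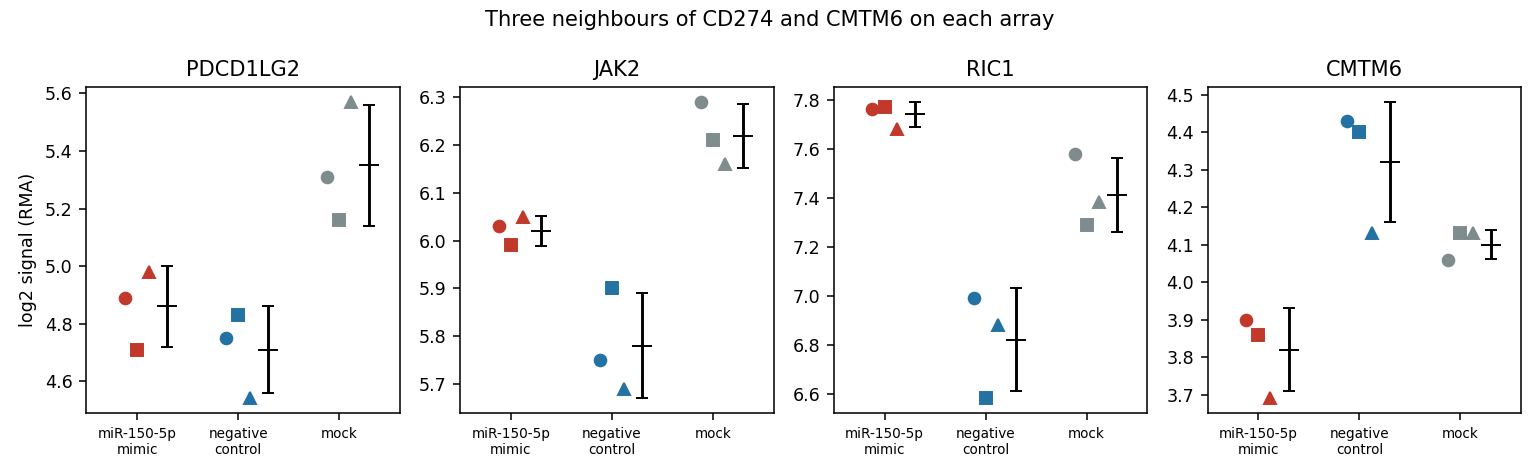
Log2 signal of PDCD1LG2, JAK2, RIC1 and CMTM6 on each array, with group means and SD (n = 3) as black bars; circles, squares and triangles are replicates 1, 2 and 3. PDCD1LG2 and JAK2 are highest on mock, RIC1 is lowest on negative control (6.58 to 6.99), and CMTM6 is lowest on mimic arrays (3.69 to 3.90).

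Around MET on chromosome 7, 0 of 8 measured neighbours passed in any comparison by limma (1, 1 and 0 at an unadjusted p under 0.05 in the mimic against negative control, the mimic against mock and the negative control against mock). The shares of all genes that passed were 3.18%, 3.9% and 0.645% in the same order of comparisons. Differences of the 8 neighbours ran from -0.24 to 0.16 in the mimic against the negative control and from -0.18 to 0.10 in the negative control against mock. ST7, whose start lies 281 kb downstream of that of MET, read 0.02 and 0.09 in these 2 comparisons, and TES, at -462 kb, 0.16 and -0.18. CAV1, CAV2 and CAPZA2, the nearest genes, were not analysed here.

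**Figure D4:**
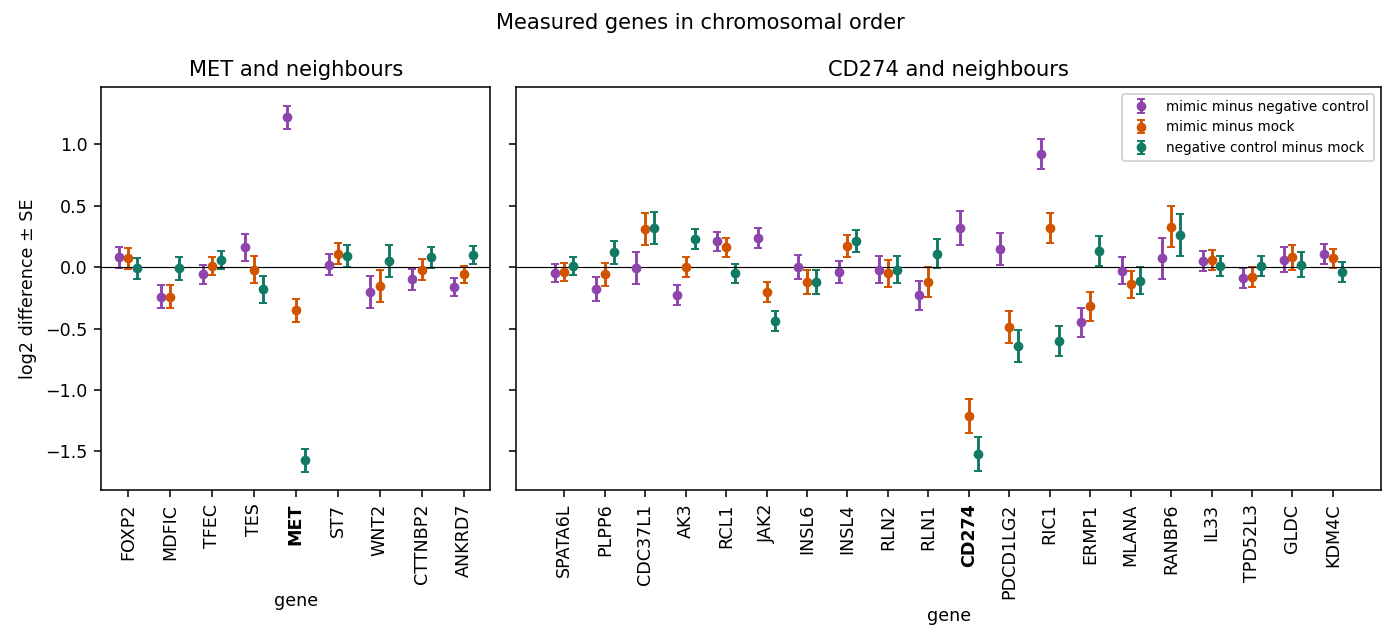
Log2 difference ± SE (limma, n = 3 arrays per group) in the 3 comparisons for MET (left) and CD274 (right) with their measured neighbours in chromosomal order. MET stands alone at -1.57 and 1.22, while PDCD1LG2 and RIC1, next to CD274, are at -0.64 and -0.60 in the negative control against mock.

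Genes that act with MET or PD-L1 were then tested with all 14884 genes, on lists written from general knowledge. The lists were chosen with earlier results of these data known, so their shares of calls are descriptions. In the mimic against the negative control 3.18% of all genes passed, 1.76% higher and 1.42% lower. In the mimic against mock 3.9% passed, 2.28% higher and 1.62% lower. In the negative control against mock 0.645% passed, 0.168% higher and 0.477% lower, which was 96 genes, against 18 when the 6 arrays compared were fitted alone, 61 with the replicate number as a block and 0 with both (1643 genes at an unadjusted p under 0.05 in the fit of all arrays, and 1735 with both). Without mock 1, 21 genes passed. MET is not on these lists, and neither is CD274. Leaving out mock 2 and negative control 2 together ended the calls below of SH3KBP1, ETS2, ZEB1, IER3, FGFR2, CMTM6, WARS1, IFITM3 and ISG15 in the mimic against the negative control, of NRP2, LRIG1, DAXX, DNMT1, DUSP6, EPHA2, CD70 and NECTIN3 in the mimic against mock, and of ROR1 in the negative control against mock (limma adjusted p = 0.050 to 0.092).

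Of 135 measured genes on 7 lists around MET, 9 passed in the mimic against the negative control (1 rose and 8 fell, 6.67%), 11 in the mimic against mock (4 rose and 7 fell, 8.15%), and 2 in the negative control against mock (both rose, 1.48%). The median difference over the 135 was -0.026, 0.0023 and -0.0071, against -0.004, 0 and 0.008 over all genes. HGF, the ligand, was at 1.93, 2.19 and 1.82 on mimic, 2.20, 2.17 and 2.09 on negative control and 1.99, 1.93 and 1.92 on mock arrays, below the array medians. Neither HGF (adjusted p = 0.47, 0.92 and 0.50 by limma), the activating protease gene ST14 (0.70, 0.91 and 0.70), nor MST1R (0.99, 0.75 and 0.81), the receptor most related to MET, passed. For this list 0 of 7 measured genes passed in any comparison by limma, and 0 had an unadjusted p under 0.05.

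Among 23 measured partners and adaptors of MET, 1 fell in each comparison with the mimic. SHC1, an adaptor that links receptors to RAS, fell in the mimic against the negative control by 0.51 on the log2 scale (SE 0.12, limma adjusted p = 0.047). It read 8.56, 8.55 and 8.58 on mimic arrays, against 9.11, 8.85 and 9.27 on negative control arrays, and its adjusted p reached 0.14 when arrays were left out, above 0.05 on leaving out any array but mock 3 and negative control 2. It also missed with a second quantile normalization (0.064), median centring (0.057), the 6 arrays alone (0.083) and a robust variance trend (0.052). NRP2, a co-receptor of semaphorins, fell in the mimic against mock by 0.65 on the log2 scale (SE 0.13, limma adjusted p = 0.030, rising to 0.11 on leaving out mock 1 or 3, negative control 1 or 3, or mimic 2 or 3, and 0.082 on the 6 arrays alone). The docking protein gene GAB1 was at 0.29 and 0.30 in the mimic against the negative control and mock (limma adjusted p = 0.31 and 0.27). PLXNB1, a semaphorin receptor that associates with MET, was at 0.34 in the mimic against the negative control (0.22), and CD44, a MET co-receptor, at -0.36 in the mimic against mock (0.064).

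Of 19 measured genes of MET turnover, 1 fell in each comparison with the mimic and 0 passed in the negative control against mock by limma (8 at an unadjusted p under 0.05). SH3KBP1, an adaptor that joins CBL in receptor endocytosis, read 5.38, 5.13 and 5.22 on mimic, 5.68, 5.81 and 5.77 on negative control and 5.34, 5.43 and 5.43 on mock arrays. It fell in the mimic against the negative control by 0.51 on the log2 scale (SE 0.087, limma adjusted p = 0.015, rising to 0.061 on leaving out negative control 3, or mimic 2 or 3). It missed narrowly on the 6 arrays alone and with the replicate block (0.051 each). SH3KBP1 was highest on negative control arrays, and no mock array reached them, as in 12% of all genes the arrays of these 2 groups did not overlap. Its difference between negative control and mock did not pass (0.35, limma adjusted p = 0.13). LRIG1, a membrane protein that promotes the degradation of growth factor receptors, fell in the mimic against mock by 0.45 on the log2 scale (SE 0.095, limma adjusted p = 0.033, rising to 0.10 on leaving out any array but mock 1 and negative control 2). It also missed with median centring (0.051), the 6 arrays alone (0.078), a robust variance trend (0.053) and the replicate block (0.062).

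Of 25 measured transcription and chromatin factors reported to act on the MET gene, 4 passed in the mimic against the negative control and 5 in the mimic against mock. Over all genes 3.18% and 3.9% passed in these comparisons. This list, too, was chosen with earlier results of these data known, so its share is a description. In the negative control against mock 0 passed by limma (3 at an unadjusted p under 0.05). EPAS1, the hypoxia-inducible factor 2-alpha, read 6.43, 6.65 and 6.34 on mimic, 7.76, 7.23 and 7.91 on negative control and 7.97, 7.76 and 8.13 on mock arrays. It fell by 1.16 and 1.48 on the log2 scale in the mimic against the negative control and mock (SE 0.17, limma adjusted p = 0.0088 and 0.0027), with every mimic array below all others. ETS2, of the ETS family, fell by 0.75 and 0.83 on the log2 scale (SE 0.13, limma adjusted p = 0.016 and 0.0098), the first with 0.066 at most without negative control 3, or mimic 1 or 3. ZEB1, a repressor of epithelial genes, fell by 0.36 and 0.58 on the log2 scale (SE 0.076, limma adjusted p = 0.036 and 0.0043), the first rising to 0.11 on leaving out any array but negative control 2. That call of ZEB1 also missed on the 6 arrays alone (0.077), with a robust variance trend (0.068) and with the replicate block (0.079).

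The other calls of this list were rises. DNMT1, the maintenance DNA methyltransferase, rose by 0.53 and 0.39 in the mimic against the negative control and mock (SE 0.091, limma adjusted p = 0.016 and 0.046). The first reached 0.062 without negative control 3 or any mimic array and was 0.050 on the 6 arrays alone, and the second 0.13 without any mock or mimic array or negative control 3. The second also missed with a second quantile normalization (0.11), the 6 arrays alone (0.053), a robust variance trend (0.063) and the replicate block (0.087). DAXX, a histone chaperone reported to repress MET, rose by 0.47 in the mimic against mock (SE 0.095, limma adjusted p = 0.029, rising to 0.11 on leaving out mock 1 or 2 or any mimic array, and 0.053 on the 6 arrays alone). None of these factors passed in the negative control against mock, where 0.645% of all genes passed.

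Of 20 measured genes known as outputs of ERK signalling, which MET feeds, 1 fell in the mimic against the negative control, 2 rose in the mimic against mock and 1 rose in the negative control against mock. DUSP6, a phosphatase of ERK, read 6.74, 6.31 and 6.09 on mimic, 5.74, 6.06 and 5.86 on negative control and 5.16, 5.59 and 5.69 on mock arrays. It rose by 0.90 in the mimic against mock (SE 0.18, limma adjusted p = 0.031, rising to 0.099 on leaving out mock 1 or 2, negative control 3, or mimic 1 or 2). It missed on the 6 arrays alone (0.078) and with the replicate block (0.066). SPRY2, a feedback inhibitor, was at 0.57 there (limma adjusted p = 0.066). DUSP6 was lowest on mock arrays, but its difference between negative control and mock did not pass (0.41, limma adjusted p = 0.46).

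ETV4, an ETS factor induced by ERK, rose by 0.66 in the negative control against mock (SE 0.11, limma adjusted p = 0.034, rising to 0.15 on leaving out any array but mock 2). It missed on the 6 arrays alone (0.17) and with the replicate block over 9 or 6 arrays (0.089 and 0.16). IER3, an immediate early gene, fell in the mimic against the negative control by 0.70 on the log2 scale (SE 0.13, limma adjusted p = 0.019, rising to 0.082 on leaving out negative control 3, or mimic 1 or 3). It missed with the mean of its 11 features (0.13) and on the 6 arrays alone (0.060). EPHA2, an ephrin receptor, rose by 0.58 in the mimic against mock (SE 0.13, limma adjusted p = 0.041, rising to 0.14 on leaving out any array but mock 3 and negative control 2). It missed with a second quantile normalization (0.064), the 6 arrays alone (0.077) and the replicate block (0.057).

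Of 37 other receptor tyrosine kinases measured, 2 fell in the mimic against the negative control, 1 rose and 2 fell in the mimic against mock, and 1 rose in the negative control against mock. EPHA4, an ephrin receptor named after its values were seen, had the order of groups of MET, with means of 5.67 on mimic, 4.92 on negative control and 5.72 on mock arrays. It did not pass in the mimic against the negative control (0.75, limma adjusted p = 0.16) or in the negative control against mock (-0.80, limma adjusted p = 0.24). ROR1, a receptor of WNT5A, read 4.09, 4.33 and 4.02 on mimic, 5.04, 5.05 and 5.37 on negative control and 4.19, 4.13 and 4.37 on mock arrays. This is the opposite order to MET at the negative control: ROR1 fell by 1.00 on the log2 scale in the mimic against the negative control (SE 0.12, limma adjusted p = 0.0035) and rose by 0.92 in the negative control against mock (SE 0.12, limma adjusted p = 0.012). The rise missed without mock 1 (0.081), on the 6 arrays alone (0.066) and with the replicate block on these (0.067).

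FGFR2, a fibroblast growth factor receptor, read 2.70, 3.05 and 3.16 on mimic, 3.74, 3.47 and 3.66 on negative control and 3.77, 4.02 and 4.18 on mock arrays. It fell by 0.65 and 1.02 on the log2 scale in the mimic against the negative control and mock (SE 0.14, limma adjusted p = 0.043 and 0.0062). The first reached 0.14 on leaving out any array but mock 1 and 3, and missed on the 6 arrays alone (0.077) and with the replicate block (0.055). EPHA5 fell in the mimic against mock by 0.53 on the log2 scale (SE 0.089, limma adjusted p = 0.013, and 0.051 without mimic 1). EGFR and AXL, known for signalling alongside MET in breast cancer, passed in no comparison. EGFR read 7.13, 7.31 and 7.12 on mimic, 7.03, 6.79 and 7.27 on negative control and 7.60, 7.08 and 7.77 on mock arrays, with limma adjusted p = 0.73, 0.46 and 0.39 in the order of comparisons above. For AXL they were 0.67, 0.42 and 0.87.

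Of 141 measured genes on 6 lists around PD-L1, 8 passed in the mimic against the negative control (3 rose and 5 fell, 5.67%), 4 in the mimic against mock (all fell, 2.84%), and 0 in the negative control against mock by limma (23 at an unadjusted p under 0.05). The median difference was -0.051, -0.035 and 0.018, against -0.004, 0 and 0.008 over all genes. The shares of all genes that passed were 3.18%, 3.9% and 0.645% in the same order of comparisons. Under other settings up to 2 genes of these lists passed in the negative control against mock. Other checkpoint genes numbered 27, of which 2 fell in the mimic against mock and 0 passed in the other comparisons by limma (2 and 4 at an unadjusted p under 0.05). CD70, the ligand of CD27, fell by 0.57 on the log2 scale (SE 0.11, limma adjusted p = 0.023, rising to 0.070 on leaving out mock 2 or 3 or any mimic array). NECTIN3, an adhesion protein, fell by 0.46 on the log2 scale (SE 0.094, limma adjusted p = 0.031, rising to 0.096 on leaving out any mock or mimic array). Both missed on the 6 arrays alone (0.053 and 0.063) and with the replicate block (0.055 and 0.062). CD276, known as B7-H3, passed in no comparison (limma adjusted p = 0.48, 0.78 and 0.81).

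Of 17 measured genes of PD-L1 stability and trafficking, 1 fell in the mimic against the negative control and 0 passed against mock by limma (5 in the mimic and 5 in the negative control at an unadjusted p under 0.05). CMTM6 read 3.90, 3.86 and 3.69 on mimic, 4.43, 4.40 and 4.13 on negative control and 4.06, 4.13 and 4.13 on mock arrays. It fell in the mimic against the negative control by 0.51 on the log2 scale (SE 0.10, limma adjusted p = 0.028), with every mimic array below all others. Its adjusted p reached 0.098 without mock 1, negative control 1 or 2 or any mimic array, and was 0.080 on the 6 arrays alone. Against mock it was at -0.29 (limma adjusted p = 0.16). CMTM4, which can stand in for CMTM6, was at 0.23 and 0.05 in the same comparisons (0.49 and 0.92).

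Of 32 measured regulators of the CD274 gene, 1 rose and 1 fell in the mimic against the negative control, 1 fell in the mimic against mock, and 0 passed in the negative control against mock by limma (5 at an unadjusted p under 0.05). The members that fell were ZEB1 in both. EZH2, of the Polycomb repressive complex, rose by 0.67 in the mimic against the negative control (SE 0.13, limma adjusted p = 0.024, rising to 0.089 on leaving out negative control 1 or 3 or any mimic array, and 0.074 on the 6 arrays alone). The interferon-gamma receptor gene IFNGR1 (limma adjusted p = 0.41, 0.47 and 0.96), STAT3 (0.26, 0.56 and 0.76) and IRF1 (0.27, 0.94 and 0.47) passed in no comparison. IRF1 read 3.31, 2.81 and 3.05 on mimic, 3.31, 3.50 and 3.55 on negative control and 2.79, 3.16 and 3.35 on mock arrays, so that its groups overlapped.

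Genes of the interferon-gamma response and antigen presentation gave 1 rise among 18 measured in the mimic against the negative control and 0 calls against mock by limma (1 in the mimic and 2 in the negative control at an unadjusted p under 0.05). WARS1, tryptophanyl-tRNA synthetase, which interferon-gamma is known to induce, rose by 0.89 (SE 0.20, limma adjusted p = 0.047, rising to 0.15 on leaving out any array but mock 2 and 3). It missed with a second quantile normalization (0.056), the mean of its 2 features (0.092), the 6 arrays alone (0.051) and the replicate block (0.10). B2M, the light chain of HLA class I, passed in no comparison (limma adjusted p = 0.19, 0.16 and 0.99), though its mimic arrays (6.74 to 6.99) lay below all others.

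RNA sensors and type I interferon genes, which transfected RNA can induce, had 0 calls among 33 measured in the negative control against mock by limma (4 at an unadjusted p under 0.05). In the mimic against the negative control 3 fell, and in the mimic against mock 1 fell. IFITM1, a restriction factor of virus entry, fell by 0.91 and 0.90 on the log2 scale (SE 0.12, limma adjusted p = 0.0054 and 0.0056). It read 4.14, 3.93 and 4.42 on mimic arrays, against 5.00 to 5.13 on negative control and 5.00 to 5.20 on mock arrays. IFITM3 fell in the mimic against the negative control by 0.96 on the log2 scale (SE 0.19, limma adjusted p = 0.028, rising to 0.096 on leaving out any array but mock 2 and 3 and negative control 1). ISG15, a ubiquitin-like protein, fell there by 0.69 on the log2 scale (SE 0.15, limma adjusted p = 0.040, rising to 0.13 on leaving out any array but mock 2 and negative control 3). Both missed on the 6 arrays alone (0.078 and 0.085), and with the replicate block ISG15 missed (0.078) and IFITM3 was at 0.050.

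**Figure D5:**
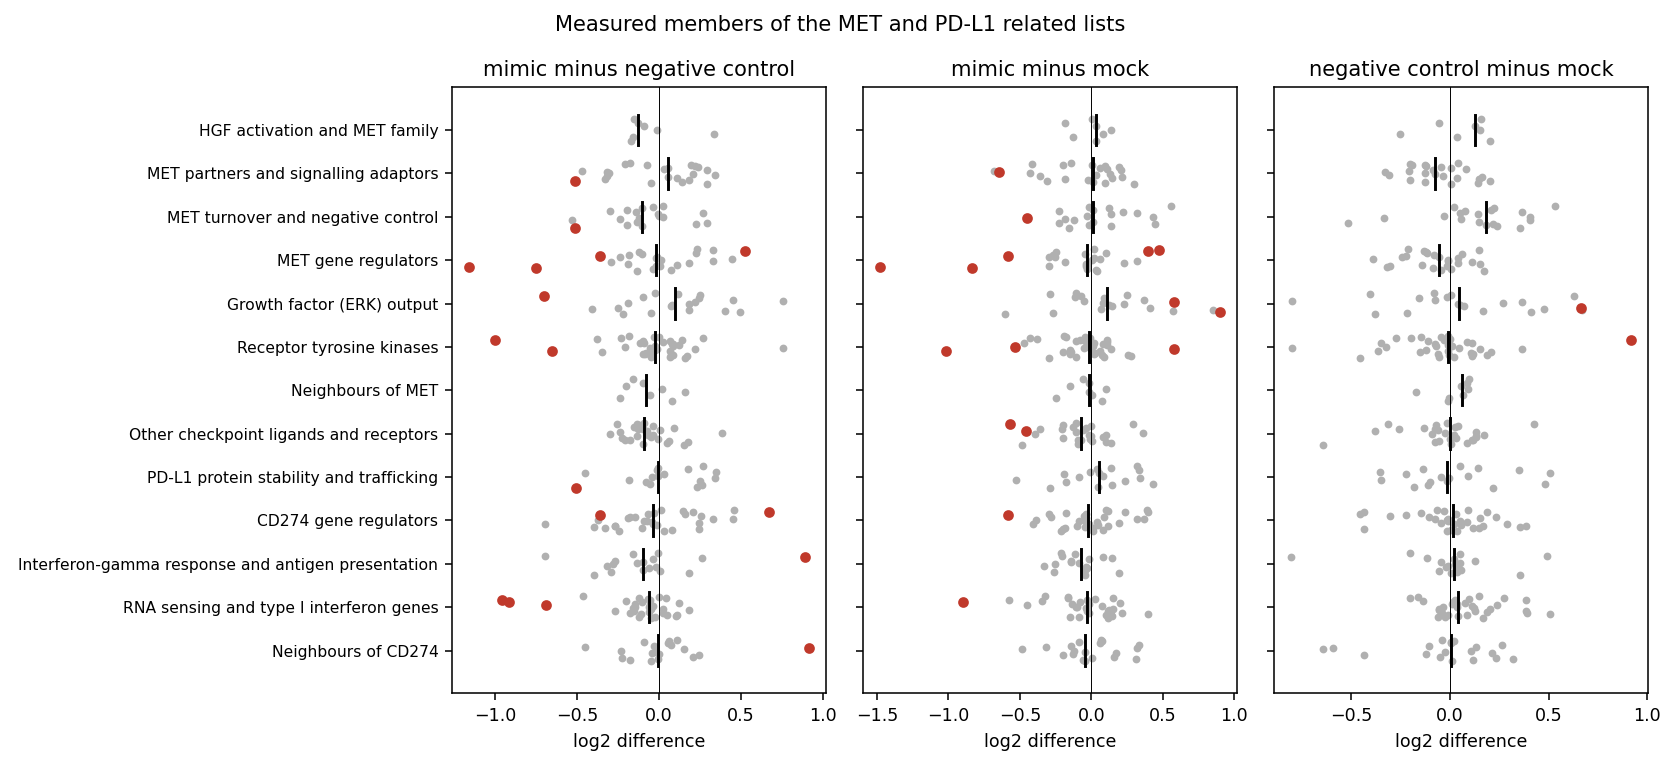
Log2 difference of each measured member of the 7 lists around MET and the 6 around PD-L1 in the 3 comparisons, red where the adjusted p was under 0.05, with a black line at the list's median. Calls lie almost all in the comparisons with the mimic, and the negative control against mock holds 2 (ETV4 and ROR1). Among all genes 473 passed in the mimic against the negative control, 580 in the mimic against mock and 96 in the negative control against mock.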

How the data were processed

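Signals of 9 arrays (3 each of mimic, negative control and mock) were used as deposited: log2 values made by the authors with RMA, per the submitters' processing notes, which corrects background, brings arrays to similar distributions and sums a feature's probes. The RNA was labelled with the FlashTag biotin kit, per the labels. That kit is known mainly for microRNA arrays, whereas these values come from a whole-transcript array, and the labels do not settle this. For RMA's version and the definition file: not given in the sources used here. Of 53617 features, 16098 carried 1 symbol in the platform table and 0 several. All 16098 gene IDs matched a RefSeq table (GRCh38.p14), used for names, order and gene positions. The array files carry no coordinates. The brightest feature stood for each of 779 genes with several, leaving 14884 genes, with no filter on signal. The number of arrays limits precision.

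Genes were tested with limma 3.58.1 (R 4.3.3, lmFit and eBayes) on all 9 arrays with 1 mean per group and 9.60 total degrees of freedom. Tests were two-sided, Benjamini-Hochberg adjusted over all genes, and called under 0.05. MET and CD274 got no test. Members and lists (17 lists, 296 of 442 symbols measured) were chosen with earlier results of these data known. Named were pinned genes, up to 4 called genes per list and comparison (DNMT1 against mock is a 5th, named after its value was seen) and the 6 genes most alike to each member. Deviations from group means correlated between same-numbered negative control and mock arrays (r = 0.15, 0.23 and 0.15). With mimic arrays r was -0.29 to -0.054. The main fit did not pair arrays, and the replicate number entered as a block only in alternatives. In simulated data for the negative control against mock with 14884 genes, 82 of 100 genes planted at a log2 change of 1 and 96 of 100 at 1.5 were called. Whether these recovery counts hold for the measured arrays, whose deviations correlated as given above, was not tested. The promoter windows are from RefSeq.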

Additional observations from a re-analysis of the deposited data

How the results depend on the processing

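All 3 differences of MET and of CD274 kept their sign and moved by less than the SD between replicates (0.10 and 0.19) under every alternative run. With 1 array left out, MET ranged from 1.14 to 1.27 in the mimic against the negative control, -0.41 to -0.30 in the mimic against mock and -1.63 to -1.49 in the negative control against mock. CD274 ranged from 0.25 to 0.46, -1.28 to -1.07 and -1.60 to -1.41. Scaling shifted the median of all genes by 0.029 at most. Counts of called genes moved more, and why they moved was not tested. In the mimic against the negative control, the count over all genes fell whichever array was left out. In the mimic against mock it rose from 580 to 650 without negative control 2 and fell without any other array. In the negative control against mock it rose from 96 to 112 without mock 2 and fell without any other array.

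In the mimic against the negative control 251 genes passed on the 6 arrays compared and 292 with the replicate block, with 199 to 431 when an array was left out. Around MET 3 passed on the 6 arrays, 4 without mock 2 and negative control 2, and 2 to 8 with 1 array left out. Around PD-L1 2 passed on the 6 arrays, 4 with the block, 3 without mock 2 and negative control 2, and 2 to 7 with 1 array left out. In the mimic against mock 321 genes passed on the 6 arrays, 904 with array weights, 346 with the block, and 188 to 650 with 1 array left out. Around MET 5 passed on the 6 arrays, 18 with array weights, 7 without mock 2 and negative control 2, and 5 to 12 with 1 array left out. Around PD-L1 2 passed on the 6 arrays, 7 with weights, 2 with the block, 2 without mock 2 and negative control 2, and 2 to 5 with 1 array left out.

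In the negative control against mock 150 genes passed when genes under the median signal were dropped, 18 on the 6 arrays, 61 with the block, 0 with the block on the 6 arrays (lowest limma adjusted p = 0.051), 28 without mock 2 and negative control 2, and 21 (without mock 1) to 112 (without mock 2) with 1 array left out. Around MET 0 passed on the 6 arrays with or without the block (26 and 26 at an unadjusted p under 0.05), 1 without mock 2 and negative control 2, and 0 to 3 with 1 array left out. Around PD-L1 1 passed after a second quantile normalization, 2 when genes under the median signal were dropped, 1 with the mean of features, 2 with array weights, and 0 with any 1 array left out. The block on 6 arrays and leaving out mock 2 with negative control 2 were chosen after seeing the data.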

Other observations

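Mesenchymal markers, used as a check of the cell line, held further calls. SNAI2, a transcription factor of the Snail family, fell by 1.36 and 1.71 on the log2 scale in the mimic against the negative control and mock (SE 0.14, limma adjusted p = 0.0018 and 0.00057), and TWIST1 by 0.61 and 0.78 (SE 0.098, limma adjusted p = 0.011 and 0.0038). The first TWIST1 value reached 0.054 without mimic 1 or 3. Of the 8 measured, 3 fell in each comparison with the mimic, ZEB1 being the other, and 0 passed in the negative control against mock by limma (4 at an unadjusted p under 0.05). None of 13 luminal, 8 blood and 6 endothelial markers passed in any comparison by limma (0 to 2 of each list at an unadjusted p under 0.05).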
